A study of Mus musculus with 12 samples.

Results

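The genes described are the Tie receptors Tek and Tie1 and the angiopoietins Angpt1 and Angpt2. Their members were taken as every probe set (a group of short probes read together for one transcript) whose only gene symbol in the array's annotation is one of these 4 genes. This gave 6 of the 45101 probe sets in the table: 1 for Tek, 1 for Tie1, 2 for Angpt1 and 2 for Angpt2. The table listed 18193 genes in this way. No member was removed by a filter on low values, and 45037 probe sets entered the tests after 64 array controls were set aside. The rule uses gene names and no measured value, though the genes were picked with earlier results of these data known.

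Expression was measured on 12 single-colour arrays from embryonic day 8.0 mouse embryos, in 4 groups of 3 arrays. By its title, the series compares EYFP positive with negative cells of ER71 wild-type and mutant embryos. ER71, now named Etv2, encodes an ETS-family transcription factor needed for blood and endothelial development. All embryos belonged to the ER71 EYFP line on a mixed C57BL/6 and FVB background, so the control embryos also carried the EYFP transgene.

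The wild-type positive and wild-type negative groups were EYFP positive and EYFP negative cells from ER71 wild-type embryos. The mutant positive and mutant negative groups were the same fractions from ER71 mutant embryos. The labels give neither the sequence that drives EYFP nor the part of ER71 that was altered. Nor do they state if replicates are separate embryos, litters or pools. The p-values therefore measure only how far these samples differ, and that spread may be technical.

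Tek, also called Tie2, is a receptor tyrosine kinase of endothelial and early haematopoietic cells, and Tie1 is its close relative, which binds no angiopoietin on its own and modifies Tek signalling as a co-receptor. Angpt1, made by perivascular, mesenchymal and myocardial cells, activates Tek and stabilises vessels, while Angpt2 weakens or supports that signal depending on context. In the mouse embryo, loss of Tek or Angpt1 is known to impair remodelling of the first vessels and the growth of the heart, and ETS factors are known to act on regulatory sequence of Tek.

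ETS motifs were sought because ER71 is an ETS factor. Promoters were looked up for all 4 genes, and those found, of Tek and Tie1, are shown. Each runs from 250 bases before to 50 after the gene's start, 300 bases, 5′ to 3′ on the gene's own strand, from RefSeq on GRCm38.p6. Tek lies at chr4:94739039-94739338 on the plus strand and Tie1 at chr4:118489800-118490099 on the minus strand. Capitals mark GGAA, the core of ETS sites, or its complement TTCC. The table used held 2 of the 4 genes. Angpt1 and Angpt2 were not in it.
Tek: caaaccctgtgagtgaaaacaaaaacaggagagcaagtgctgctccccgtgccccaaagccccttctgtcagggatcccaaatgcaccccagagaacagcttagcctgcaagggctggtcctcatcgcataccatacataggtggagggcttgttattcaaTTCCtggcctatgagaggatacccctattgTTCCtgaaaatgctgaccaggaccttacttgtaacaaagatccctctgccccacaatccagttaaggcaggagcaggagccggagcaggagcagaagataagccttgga
Tie1: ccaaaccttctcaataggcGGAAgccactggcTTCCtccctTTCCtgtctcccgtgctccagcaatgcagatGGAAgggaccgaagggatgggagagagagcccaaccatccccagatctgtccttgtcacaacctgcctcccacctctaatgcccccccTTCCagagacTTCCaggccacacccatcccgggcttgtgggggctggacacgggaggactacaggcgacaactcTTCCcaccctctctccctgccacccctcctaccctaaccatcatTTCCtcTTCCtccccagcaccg

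The Tie1 promoter held 9 GGAA matches over both strands, and 1.59% of 32851 promoters of the same length held at least as many. The Tek promoter held 2, starting at positions -89 and -59 from the start, and 84.6% of promoters held at least as many. GGAA stood at least once in 96.0% of promoters, with a median of 3. Both Tek matches were part of CAGGAA, and 5.87% of promoters held 2 or more CAGGAA. Tie1 held 1 CAGGAA, which was found in 30.6% of promoters. Tie1 also held 2 matches of AGGAAG, present at least once in 35.4% of promoters and 2 or more times in 8.62%, and 1 of CGGAAG, present in 16.9%. Tek held neither. Tek held 1 match of AACAGGA, present in 6.40% of promoters and lying at position -227, apart from the CAGGAA matches, and Tie1 held none. The GATA motif GATAA occurred at 1 place in Tek and at none in Tie1 (25.4% of promoters). Of the E-box motifs, CACGTG was in neither promoter (7.15% of promoters). CANNTG was found 2 times in Tek (39.6% of promoters held 2 or more) and 1 time in Tie1 (72.3% held 1 or more). Apart from AACAGGA, the longer ETS motifs contain GGAA, so the counts overlap. A match describes letters and is not a measured binding site.

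Values below are log2 expression as the authors deposited them, so a difference of 1 is a doubling, and the arrays of a group are listed in the order of replicates 1, 2 and 3. Array medians lay between 6.98 and 7.06 and 25th percentiles between 5.62 and 5.69. Brightness depends on the probes, so no level is set against that of another probe set. The check of the mutated gene came first. Etv2 (probe set 1421773_at) read 10.72, 10.70 and 11.36 in wild-type positive cells, 7.58, 7.496 and 7.85 in wild-type negative cells, 7.40, 7.26 and 7.28 in mutant positive cells and 7.49, 7.43 and 7.24 in mutant negative cells. It was lower in mutant than in wild-type positive cells by 3.61 ± 0.17 (SE, log2). This check thus did not go against the genotype labels of the positive arrays. Whether the probes lie within the altered part of the gene is not given. Etv2 was low in both negative groups, so it could not check the genotype labels of the negative arrays. The embryonic globin gene Hbb-y varied within those groups. It read 10.8, 5.59 and 11.9 in wild-type negative cells and 5.01, 11.5 and 4.71 in mutant negative cells. The cause was not tested. Both wild-type arrays numbered 1 stood apart in sex-linked genes: the Y-linked gene Eif2s3y read 10.8 and 11.2 on them and 4.11 to 4.53 on the other 10 arrays, and Xist read 10.3 and 8.19 against 13.4 to 14.0. Calls that changed without this pair are given beside the result. The same 2 arrays had the largest gaps between the 3′ and 5′ control probe sets, a sign of RNA quality: 3.05 and 3.14 (log2) for actin, against 1.40 to 2.72 on the other 10 arrays, and 3.42 and 3.17 for Gapdh, against 1.49 to 2.82. The actin gap was also lowest in mutant positive cells, at 1.40 to 1.62, against 1.54 to 3.05 in wild-type positive, 1.57 to 3.14 in wild-type negative and 1.87 to 2.72 in mutant negative cells. Its part in the differences that involve mutant positive cells was not tested.

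Tek, the angiopoietin receptor, was highest in wild-type positive cells, intermediate in mutant positive cells and low in both negative groups. Its probe set 1418788_at read 11.65, 11.33 and 11.27 in wild-type positive cells (mean 11.42 ± 0.21 SD, n = 3) and 10.15, 9.80 and 9.03 in mutant positive cells (9.66 ± 0.57). Mutant negative cells read 7.75, 7.80 and 7.31 (7.62 ± 0.27) and wild-type negative cells 6.82, 7.41 and 6.66 (6.96 ± 0.39). All 3 wild-type positive arrays lay above all mutant positive arrays, and these above all negative ones. The negative groups overlapped, since replicate 2 of the wild type was above replicate 3 of the mutant.

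In wild types, Tek was higher in positive than in negative cells by 4.46 ± 0.28 (SE), a 21.9-fold difference (95% interval of the log2 difference 3.84 to 5.07, limma adjusted p = 4.53e-06). This was the 45th highest of the 45037 differences. In mutants it was also higher in positive cells, by 2.04 ± 0.28, a 4.11-fold difference (1.42 to 2.66, adjusted p = 0.00334), the 61st highest. Tek thus passed the sort test in both genotypes. Fewer cells of a type and less RNA per cell cannot be told apart in such bulk samples.

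Between genotypes, Tek was lower in mutant than in wild-type positive cells by 1.76 ± 0.28, a 3.38-fold difference (interval -2.37 to -1.14, adjusted p = 0.00475). The difference between sorted fractions was smaller in mutants than in wild types by 2.42 ± 0.40 (interaction -2.42, interval -3.29 to -1.54, adjusted p = 0.0119). Without both wild-type arrays numbered 1 the interaction was -2.23 with an adjusted p of 0.0881, which missed the threshold of 0.05. In the negative cells, the mutant mean was above the wild-type mean by 0.66 (interval 0.04 to 1.28, adjusted p = 0.976).

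The mutant positive array with the highest Tek value, replicate 1, also carried more signal of the yolk sac endoderm, epithelium and neural ectoderm marker lists. The mean log2 value of the 7 yolk sac endoderm genes was 9.65 on it, against 6.79 and 6.89 on replicates 2 and 3. Afp read 12.0 on it against 5.02 and 4.03, and Ttr 12.2 against 5.58 and 5.79. Apob differed little (7.35 against 7.11 and 7.14), and Sox17, also on the list, went the other way (6.97 against 7.72 and 8.95). The epithelium mean was 10.4 on replicate 1 against 9.36 and 9.39. For neural ectoderm it was 8.67 against 7.88 and 7.66, although Nes on that list was lower (9.03 against 9.31 and 9.14). The part of these signals in the Tek value was not tested. Without that array, the log2 difference of Tek between mutant and wild-type positive cells was -1.999 (adjusted p = 0.00381) and that between mutant positive and mutant negative cells was 1.80 (adjusted p = 0.0103).

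**Figure D1:**
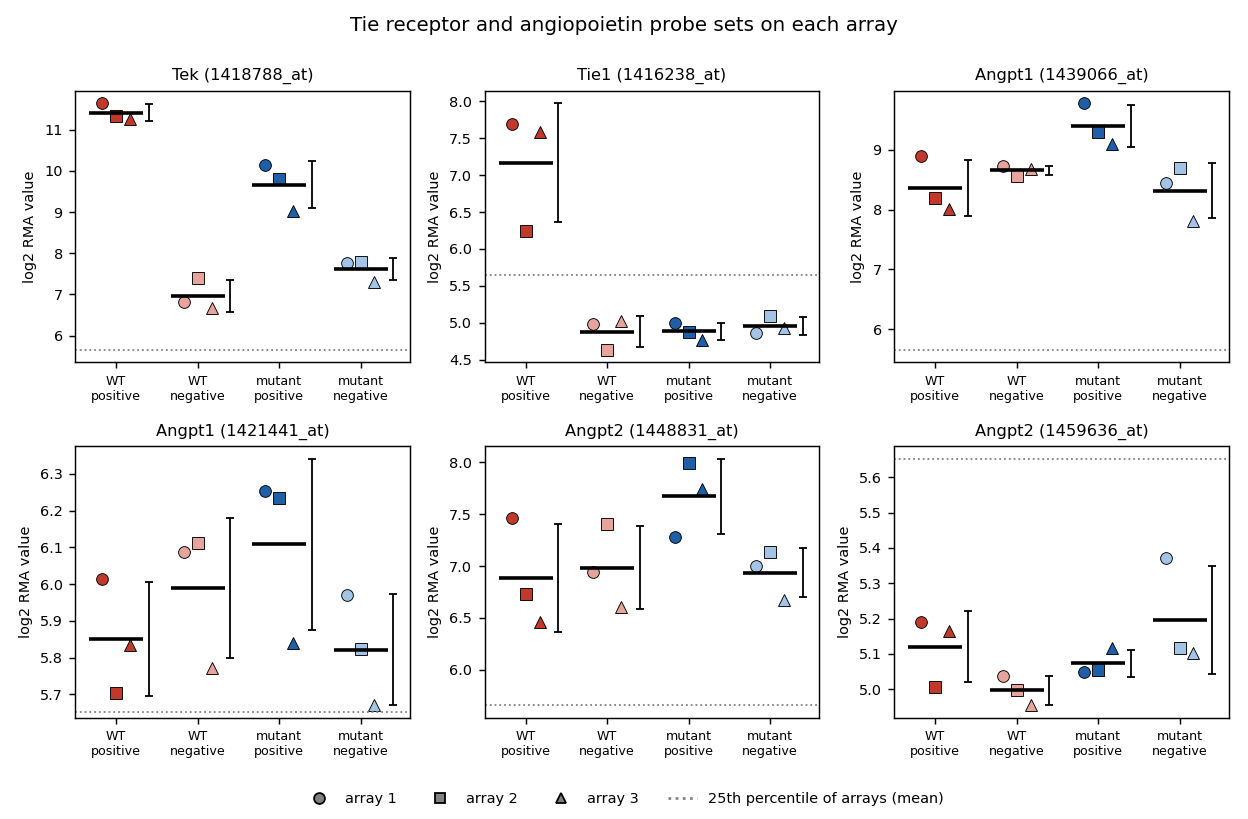
Log2 expression (vertical axis) of the 6 probe sets of Tek, Tie1, Angpt1 and Angpt2 on each of the 12 arrays, by group, with the group mean and SD (n = 3) and a dotted line at the arrays' mean 25th percentile (5.65). Tek stays raised in mutant positive cells (mean 9.66), Tie1 is raised in wild-type positive cells (mean 7.17), and the brighter Angpt1 and Angpt2 probe sets have their highest means in mutant positive cells (9.40 and 7.67).

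Tie1, the co-receptor, was raised in wild-type positive cells, and the other 3 groups gave similar low values. Probe set 1416238_at read 7.69, 6.24 and 7.58 in wild-type positive cells (mean 7.17 ± 0.81 SD, n = 3). It read 4.99, 4.63 and 5.02 in wild-type negative cells (4.88 ± 0.21) and 5.003, 4.88 and 4.77 in mutant positive cells (4.88 ± 0.12). Mutant negative cells read 4.86, 5.09 and 4.92 (4.96 ± 0.12). All 3 wild-type positive arrays were above all 9 others, with replicate 2 well below its group, while the remaining groups overlapped one another. Those 9 arrays lay below their array's 25th percentile, a range in which such arrays resolve levels poorly, so the folds for Tie1 are uncertain in size.

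Tie1 was higher in positive than in negative wild-type cells by 2.29 ± 0.31 (4.90-fold, interval 1.61 to 2.97, adjusted p = 0.00127). It was lower in mutant than in wild-type positive cells by 2.29 ± 0.31 (4.89-fold, interval -2.97 to -1.61, adjusted p = 0.00160). Both comparisons use the same wild-type positive arrays. In mutants the positive-negative difference was -0.08 (interval -0.76 to 0.60, adjusted p = 0.978), and the mutant negative mean was above the wild-type negative mean by 0.08 (interval -0.60 to 0.76, adjusted p = 0.997).

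The interaction for Tie1 was -2.37 ± 0.44 (interval -3.33 to -1.41, adjusted p = 0.0236), but it was less secure than that for Tek. It missed the threshold when any of 8 arrays was left out: all 3 wild-type negative arrays, wild-type positive replicate 3, replicates 2 and 3 of the mutant positive cells and replicates 2 and 3 of the mutant negative cells. Over the 12 such fits the value ran from -2.84 to -2.11 and the adjusted p from 4.07e-05 to 0.0785. Without both wild-type arrays numbered 1 it was -2.17 (adjusted p = 0.0905).

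The receptors thus shared the direction of the genotype difference in positive cells, and in mutants Tek passed the test between sorted fractions while Tie1 did not. That contrast between the genes was tested itself, as the log2 difference Tek minus Tie1 within each array, in 4 comparisons and likewise for Angpt2 minus Angpt1, 8 tests in all. Between mutant positive and mutant negative cells, Tek minus Tie1 differed by 2.12 (two-sided exact permutation p = 0.1, Benjamini-Hochberg adjusted 0.4, n = 3 per group). Between wild-type positive and negative cells it differed by 2.16 (exact permutation p = 0.1, adjusted 0.4). With 3 arrays against 3, 0.1 is the smallest p possible, so neither can pass. Tie1 lay below the 25th percentile on every mutant array, so the 2.12 largely repeats Tek's own 2.04. It does not show that Tie1 stayed unchanged there. Between mutant and wild-type positive cells the difference was 0.53 (exact permutation p = 0.3, adjusted 0.6).

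**Figure D2:**
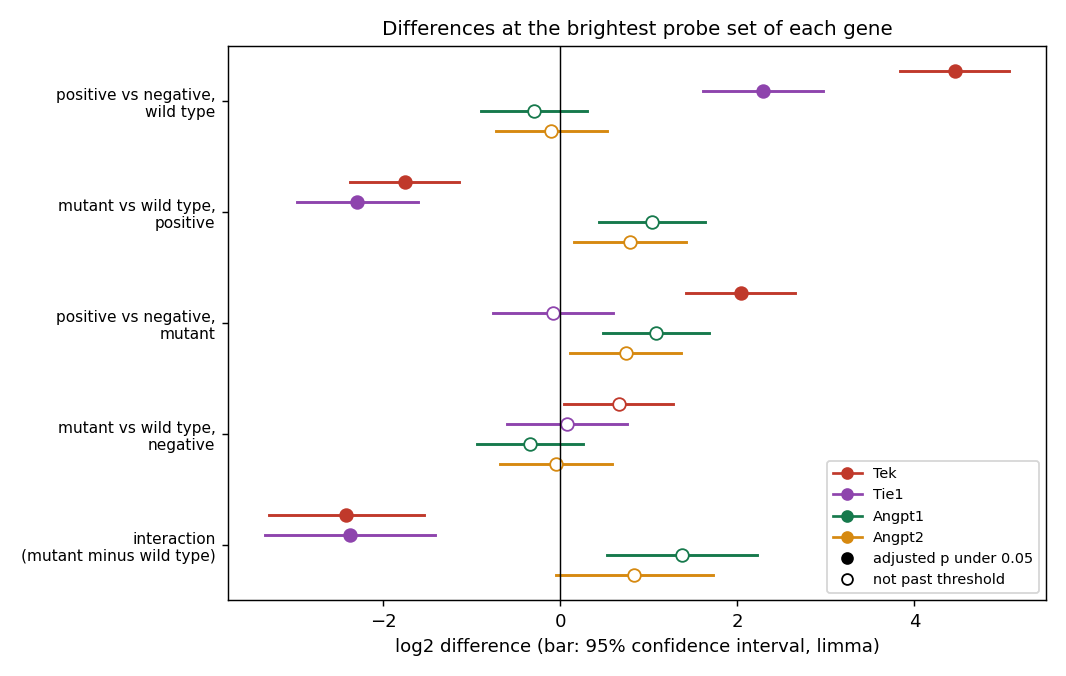
Log2 difference (horizontal axis) at the brightest probe set of each of the 4 genes, with 95% intervals from limma. The 5 contrasts are the 4 comparisons of groups and the interaction. Filled points have an adjusted p under 0.05. Tek passes the test in both sort comparisons (4.46 in wild types, 2.04 in mutants), Tie1 passes it in wild types (2.29), and neither angiopoietin passes in any of the 5.

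Angpt1, the activating ligand, had its highest mean in mutant positive cells, without passing the threshold. The brighter probe set, 1439066_at, read 9.79, 9.31 and 9.10 in mutant positive cells (mean 9.40 ± 0.35 SD, n = 3) and 8.72, 8.57 and 8.68 in wild-type negative cells (8.66 ± 0.08). Wild-type positive cells read 8.89, 8.19 and 8.01 (8.36 ± 0.47) and mutant negative cells 8.45, 8.70 and 7.81 (8.32 ± 0.46). Every mutant positive array was above every other array, and the other 3 groups overlapped.

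Angpt1 read 1.04 ± 0.27 higher in mutant than in wild-type positive cells (2.05-fold, interval 0.44 to 1.64, unadjusted p = 0.00301, limma adjusted p = 0.0604). It read 1.08 ± 0.27 higher in mutant positive than in mutant negative cells (2.11-fold, interval 0.48 to 1.68, unadjusted p = 0.00228, adjusted p = 0.0720). With positive and negative arrays of the same number taken as pairs, the adjusted p of the latter was 0.0256, past the threshold. Leaving out 1 array also brought Angpt1 past it: the mutant-wild-type difference in positive cells had an adjusted p of 0.0230 without wild-type positive replicate 1 (value 1.30) and of 0.0380 without mutant negative replicate 3 (value 1.04), and the mutant sort difference had 0.0388 without wild-type positive replicate 1 (value 1.08). Without both wild-type arrays numbered 1 the mutant-wild-type difference in positive cells was 1.30 (adjusted p = 0.0419).

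In wild types the sorted fractions differed in Angpt1 by -0.30 (interval -0.90 to 0.30, adjusted p = 0.725), and in negative cells the genotypes differed by -0.34 (interval -0.94 to 0.26, adjusted p = 0.976). The interaction was 1.37 ± 0.38 (adjusted p = 0.165). The dimmer Angpt1 probe set, 1421441_at, stayed between 5.67 and 6.25 on all 12 arrays, below the array median on each. Its differences ran from -0.17 to 0.29 over the 4 comparisons of groups, its interaction was 0.43, and none passed the threshold, so this probe set does not settle what the brighter one shows.

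Angpt2, the context-dependent ligand, was close to the array median in all groups. Probe set 1448831_at read 7.28, 7.999 and 7.74 in mutant positive cells (mean 7.67 ± 0.36 SD, n = 3) and 6.94, 7.40 and 6.60 in wild-type negative cells (6.98 ± 0.40). Mutant negative cells read 6.999, 7.13 and 6.67 (6.93 ± 0.24) and wild-type positive cells 7.46, 6.73 and 6.45 (6.88 ± 0.52). Mutant positive arrays were all above the mutant negative ones but overlapped both wild-type groups, and the other 3 groups overlapped one another.

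Angpt2 read 0.79 ± 0.29 higher in mutant than in wild-type positive cells (interval 0.16 to 1.42, adjusted p = 0.168) and 0.74 ± 0.29 higher in mutant positive than in mutant negative cells (interval 0.11 to 1.37, adjusted p = 0.302). The wild-type sort difference was -0.10 (interval -0.73 to 0.53, adjusted p = 0.935) and the genotype difference in negative cells -0.05 (interval -0.68 to 0.58, adjusted p = 0.998). The interaction was 0.84 (interval -0.05 to 1.73, adjusted p = 0.557). The second probe set, 1459636_at, read 4.95 to 5.37, below the 25th percentile on all 12 arrays, and passed no test. Missing the threshold does not show that the groups have equal Angpt2, since the intervals for mutant positive cells reach 1.42.

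Cells that are known to make Angpt1 had higher marker levels in the same mutant positive fraction. All 8 cardiac markers read higher in mutant than in wild-type positive cells, and 6 of them passed the threshold, where 6.27% of all 18193 genes, taken by their brightest probe set, were called in either direction. Among the 6 were Myl7, an atrial myosin light chain, by 2.52 and Tnnt2, cardiac troponin T, by 2.23. The log2 of the summed cardiac level was 15.4 to 15.7 in mutant positive cells, 12.9 to 14.2 in wild-type positive cells, 13.6 to 14.1 in wild-type negative cells and 13.1 to 14.1 in mutant negative cells. All 8 mural and mesenchymal markers also read higher there, and 5 passed. Among the 5 were Rgs5, a pericyte marker, by 2.26 and Pdgfra, a mesenchymal receptor, by 1.93. Means rose less for Pdgfrb (11.3 in wild-type and 12.0 in mutant positive cells) and little for Cspg4 (8.17 and 8.34). The mural and mesenchymal sum was 14.7 to 14.9 in mutant positive cells and 13.2 to 13.8 in the other 3 groups. The rise was not confined to these lists, since 2 of 4 epithelium markers also passed, in the same direction. The epithelium sum was 13.5 to 13.9 in mutant positive cells and 12.4 to 12.6 in wild-type positive cells. In negative cells it was 13.2 to 13.4 in wild types and 12.9 to 13.5 in mutants. The part of any of these lists in the Angpt1 and Angpt2 values was not tested.

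Over the members, limma called 2 of 6 probe sets in the wild-type sort comparison, where 4.48% of all probe sets were called. In mutant against wild-type positive cells it called 2 of 6, where 4.42% of all were called. In the mutant sort comparison it called 1 of 6, where 2.62% were called. In mutant against wild-type negative cells it called 0 of 6, where 0% were called: 0 of 45037, although 2119 had an unadjusted p under 0.05. For the interaction it called 2 of 6, where 1.27% were called. The median difference over the 6 probe sets was 0.01, 0.11, 0.51, 0.02 and 0.09 in these comparisons in turn, and over all probe sets -0.01, -0.01, -0.03, 0.01 and -0.02. Every call was on a receptor.

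Other genes of the pathway were taken from a list of 27, of which 24 had a probe set with a single symbol, using the brightest per gene. Counts here are of genes past the threshold, beside the share called among all 18193 genes by their brightest probe set. In the wild-type sort comparison 5 were higher and 0 lower (6.49% of all genes called). In mutant against wild-type positive cells 1 was higher and 4 lower (6.27%), and in the mutant sort comparison 2 were higher and 0 lower (4.11%). None was called between the negative groups, where 0 of 24 also had an unadjusted p under 0.05 in limma. For the interaction 1 was higher and 3 lower (1.86%). The median difference over the 24 was 0.15, -0.02, 0.17, -0.06 and 0.05. Of 6 angiopoietin-like genes, secreted relatives that do not bind Tek, 4 were measured and limma called 0 in each comparison; at an unadjusted p under 0.05 there were 2, 1, 1, 0 and 0.

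Ptprb, the endothelial phosphatase VE-PTP that dephosphorylates Tek, had the pattern of a gene raised in wild-type positive cells alone. Its brightest probe set, 1427486_at, read 10.99, 10.60 and 9.90 in wild-type positive cells, 6.86, 6.95 and 6.72 in wild-type negative cells, 7.07, 7.10 and 6.56 in mutant positive cells and 7.14, 6.63 and 6.88 in mutant negative cells. Only the wild-type positive arrays stood apart. It was higher in positive than in negative wild-type cells by 3.65 ± 0.25 (adjusted p = 9.27e-06) and lower in mutant than in wild-type positive cells by 3.59 (difference -3.59, adjusted p = 1.11e-05). The mutant sort difference was 0.03 and the interaction -3.63 ± 0.36 (adjusted p = 0.000326). A second probe set, 1436367_at, passed the same 3 tests with 2.43, -2.52 and -2.37, and the remaining one, 1453908_at, passed none.

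Nos3, the endothelial nitric oxide synthase that is activated downstream of Tek through Akt, was also raised in wild-type positive cells alone. Probe set 1422622_at read 8.39, 7.87 and 8.04 there and 5.85 to 6.16 on the other 9 arrays, with no overlap. It was higher in positive than in negative wild-type cells by 2.13 ± 0.14 (adjusted p = 5.99e-06) and lower in mutant than in wild-type positive cells, with a difference of -2.15 (adjusted p = 6.21e-06). The mutant sort difference was -0.07 and the interaction -2.20 ± 0.20 (adjusted p = 0.000178).

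Svep1, an extracellular matrix protein reported to bind Tie1, went the other way. Probe set 1419182_at read 9.15, 9.16 and 9.32 in mutant positive cells, 7.99, 7.81 and 7.77 in wild-type positive cells, 7.82, 7.67 and 8.12 in wild-type negative cells and 7.82, 7.52 and 7.67 in mutant negative cells. The mutant positive arrays were above all 9 others, which overlapped. It was higher in mutant than in wild-type positive cells by 1.35 ± 0.13 (adjusted p = 0.000141) and higher in mutant positive than in mutant negative cells by 1.54 ± 0.13 (adjusted p = 0.000341). The wild-type sort difference was -0.01 (adjusted p = 0.987) and the interaction 1.55 ± 0.19 (adjusted p = 0.00148). The mesenchymal and cardiac sums given for the angiopoietins moved with Svep1 too, and their part was not tested.

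Foxo1, a transcription factor held inactive by Tek signalling through Akt and an activator of Angpt2, was higher in positive than in negative wild-type cells by 1.14 ± 0.20 (probe set 1416983_s_at, adjusted p = 0.00767) and lower in mutant than in wild-type positive cells by 1.43 ± 0.20 (difference -1.43, adjusted p = 0.00233). Its interaction, -1.37 with an adjusted p of 0.0478, missed the threshold on leaving out any array except wild-type positive replicate 2 (adjusted p 0.0445 to 0.111 over the 12 fits). It also missed it without both wild-type arrays numbered 1 (0.0982), with arrays centred on their medians (0.0540), with trended robust eBayes (0.0591), with array weights (0.0556) and with the replicate number as a block (0.0592), so 16 of 21 alternatives lost the call. No other Foxo1 probe set passed the interaction test. Of the other 3, 1416981_at passed in the wild-type sort and in positive cells between genotypes (0.85 and -0.93), 1416982_at in the latter (-0.83) and 1456529_at in none.

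Itgb1, the integrin beta-1 chain, through which angiopoietins can also act on cells, was higher in mutant positive than in mutant negative cells by 1.01 ± 0.17 (probe set 1426918_at, adjusted p = 0.00849, but 0.0754 with the 2 groups fitted alone). Its wild-type sort difference of 0.66 ± 0.17 passed narrowly (adjusted p = 0.0477) and missed the threshold on leaving out any array except replicate 3 of the mutant positive cells and replicates 1 and 2 of the mutant negative cells (0.0261 to 0.170 over the 12 fits), as well as without both wild-type arrays numbered 1 (0.297). Of its other 5 probe sets, 1452545_a_at passed both sort comparisons (0.50 and 0.70), 1427771_x_at passed the wild-type sort (0.48) and the remaining ones passed no test. Between positive cells of the genotypes Itgb1 differed by 0.02.

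Shc1, an adaptor that binds activated Tek, was higher in positive than in negative wild-type cells by 0.78 ± 0.16 (probe set 1422854_at, adjusted p = 0.0167). That call was lost without wild-type negative replicate 1 or 2 or wild-type positive replicate 3 (adjusted p = 0.0731, 0.0614 and 0.0643), and without both wild-type arrays numbered 1 (0.105). The other Shc1 probe set, 1422853_at, passed the same comparison, with 0.88 ± 0.20 (adjusted p = 0.0300), and no other. Rasa1, a Ras GTPase activator, was lower in mutant than in wild-type positive cells by 0.59 ± 0.13 (probe set 1426476_at, difference -0.59, adjusted p = 0.0309). It missed the threshold with the 2 groups fitted alone (0.0766) and without replicate 1 or 3 of the mutant positive cells, replicate 1 or 2 of the wild-type positive cells or replicate 2 of the wild-type negative cells (0.0891, 0.102, 0.0718, 0.0961 and 0.0510), and without both wild-type arrays numbered 1 (0.104). The other 2 Rasa1 probe sets passed no test.

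**Figure D3:**
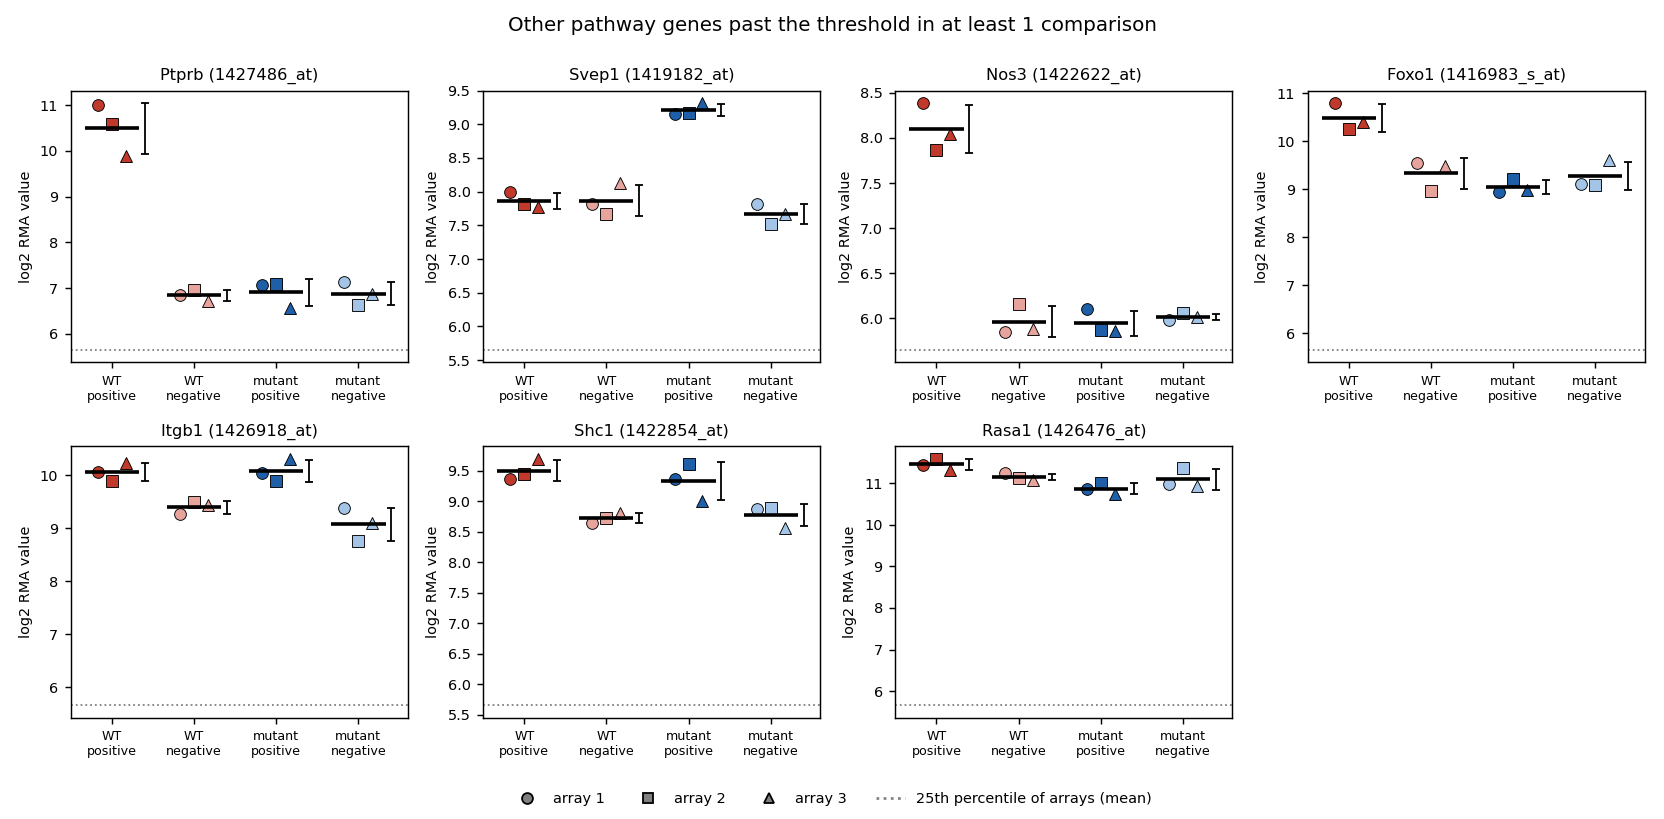
Log2 expression (vertical axis) of the pathway genes past the threshold in at least 1 comparison, on each of the 12 arrays by group, with the group mean and SD (n = 3). Ptprb and Nos3 are raised in wild-type positive cells alone, and Svep1 in mutant positive cells alone (9.15 to 9.32).

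The positive fraction was compared with endothelial markers, because Tek and Tie1 are genes of that cell type. All 10 markers were higher in positive than in negative wild-type cells, past the threshold (6.49% of all genes called). All 10 read lower in mutant than in wild-type positive cells, by differences of -5.24 to -0.32, and 8 passed (6.27% of all genes called), while Kdr and Erg did not. The log2 of their summed level was 14.1 to 14.4 in wild-type positive cells, 12.0 to 12.5 in mutant positive cells, 10.5 to 10.6 in wild-type negative cells and 10.6 to 10.7 in mutant negative cells. Most of the sum in mutant positive cells was Kdr: over the other 9 genes it was 10.2 to 10.4 there, 9.82 to 9.94 in wild-type negative, 9.88 to 10.04 in mutant negative and 13.6 to 13.9 in wild-type positive cells. In mutant positive cells 2 of the 10 lay below the 25th percentile on all arrays, as in both negative groups. For 2 defining genes of endothelium the mutant sort difference was small beside that in wild types. It was 0.10 for Cdh5, VE-cadherin, and 0.39 for Cldn5, a tight junction protein, against 5.44 and 5.25 in wild types. Flt1, also on the list, stood further from the negative cells without passing the mutant sort test. It read 8.66 to 9.29 in mutant positive, 8.10 to 8.45 in mutant negative and 8.02 to 8.14 in wild-type negative cells.

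Kdr, the VEGF receptor that also marks early mesodermal progenitors, was the 1 marker of the 10 that passed the mutant sort test, higher by 2.57 ± 0.17 (adjusted p = 0.000141), beside Tek at 2.04. Kdr was higher by 3.17 in the wild-type sort. Its genotype difference in positive cells was -0.54 (interval -0.90 to -0.17, adjusted p = 0.106), and its interaction -0.59 (interval -1.11 to -0.08, adjusted p = 0.405). Over mutant positive replicates 1, 2 and 3, Kdr rose (11.48, 11.72 and 12.17) while Tek fell (10.15, 9.80 and 9.03). The other 9 markers had mutant sort differences from -0.06 to 0.75. Of 10 blood markers, 8 were lower in mutant than in wild-type positive cells past the threshold, with Spi1 (-0.11) and Ptprc (-0.02) missing it. The log2 of the sum over the 10 was 15.8 to 16.2 in wild-type positive cells against 9.74 to 9.81 in mutant positive cells. In negative cells that sum was 9.79 to 13.1 in wild types and 9.79 to 12.4 in mutants. The part of either cell type in the Tek and Tie1 values was not tested.

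**Figure D4:**
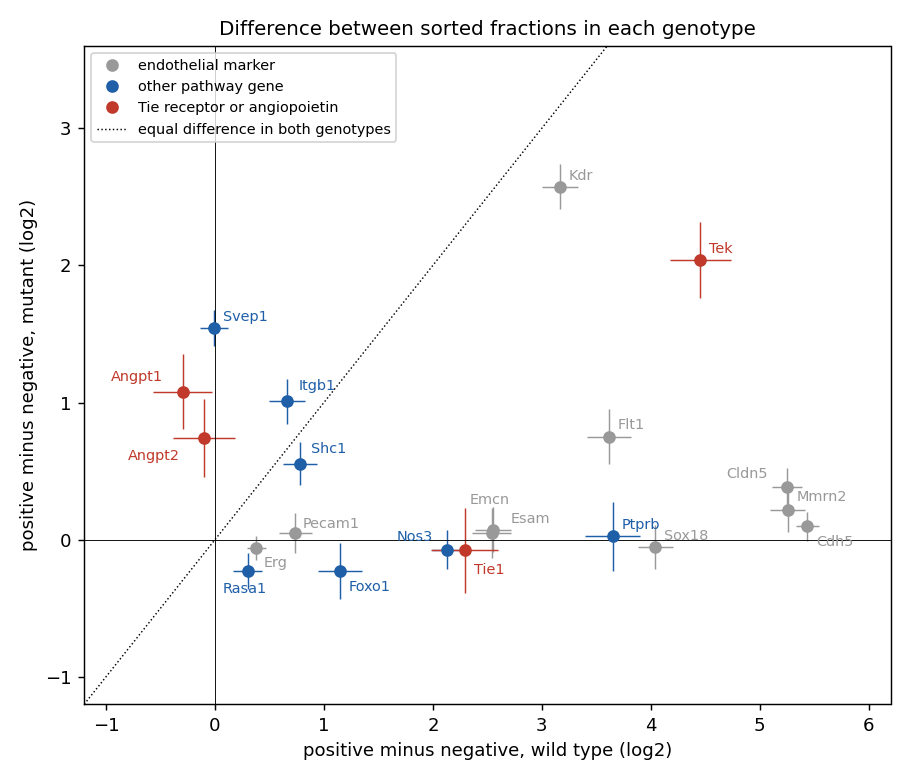
Log2 difference between positive and negative cells in wild types (horizontal axis) and in mutants (vertical axis) for the 4 genes, the called pathway genes and 10 endothelial markers, with the SE from limma; the dotted line marks equal differences. Tek (4.46, 2.04) and Kdr (3.17, 2.57) lie well above 0 on both axes, while Tie1, Ptprb and Nos3 lie near 0 in mutants.

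The genes most like each member were found by Pearson r over the 12 arrays among 5231 candidate genes, and these correlations largely follow the 4 group means. For Tek they were Akap12 (r = 0.982), Procr (0.982), Arhgap23 (0.979), Tmbim1 (0.972) and Tmem204 (0.972). Procr, the endothelial protein C receptor, had group means of 9.79 and 8.30 in the wild-type and mutant positive cells and of 7.14 and 7.06 in the mutant and wild-type negative cells, the same order as Tek. After the group means were removed, r with Tek over the arrays was 0.882 for Procr and 0.793 for Akap12, a scaffold of protein kinases.

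For Tie1 the 5 were Rhag (0.990), Clec1b (0.989), Samsn1 (0.987), Nrros (0.987) and Kcnn4 (0.985). Rhag, a red cell membrane protein, and Clec1b, a platelet receptor, are blood genes, and each had its highest mean in wild-type positive cells (7.41 and 10.43). After the group means were removed, r with Tie1 was 0.920 for Rhag and 0.926 for Clec1b. Tie1 varied mainly among the wild-type positive arrays (SD 0.81, against 0.12 to 0.21 in the other groups). With Spearman's rho none of these 5 remained among the 5 closest. Those were Hba-x, Prrg1, Slc23a2, Klf1 and Kel, of which Hba-x and Klf1 are on the blood list. On 9 of the 12 arrays Tie1 lay below the 25th percentile, so its ranks there are poorly resolved. Tek and Tie1 correlated with each other at 0.765, and at 0.0969 after group means were removed.

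For Angpt1 they were Dusp27 (0.961), Bnc1 (0.953), Fam217b (0.935), Dkk3 (0.930) and Vnn1 (0.908), and for Angpt2 Gtf2ird1 (0.953), Trdn (0.896), Asph (0.895), Kif23 (0.883) and Akap2 (0.876). Dkk3, a secreted protein of the Dickkopf family, had a mean of 8.94 in mutant positive cells and 7.97 to 8.07 in the other groups. Trdn, a calcium release protein of muscle, had 7.11 there and 5.34 to 5.60 elsewhere. Angpt1 and Angpt2 correlated at 0.718, and at 0.381 after group means were removed. Spearman's rho kept 3 of the 5 for Tek, 3 for Angpt1 and 4 for Angpt2. All these values share the same 12 arrays.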

How the data were processed

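The authors deposited log2 expression values made with RMA, per the submitters' processing notes, with version and settings not given in the sources used here. Per the labels, embryos were dissociated in trypsin, fractions were collected on a BD FACSAria sorter, RNA was extracted with Trizol, and repeatedly amplified RNA was labelled with the MessageAmpII-Biotin Enhanced Kit. The deposited log2 values were used as given. A model of all 4 groups was fitted to 45037 probe sets with limma 3.58.1 in R 4.3.3 (lmFit, eBayes; 8 residual degrees of freedom), with Benjamini-Hochberg adjustment over all probe sets and a threshold of 0.05. The script was tested on simulated data. All tests were two-sided. Precision is limited by having only 3 arrays in each group. The 5 contrasts were both sort comparisons, both genotype comparisons and the interaction.

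Same-numbered positive and negative arrays deviated together in mutants (correlations of deviations from group means 0.659, 0.414 and 0.520), and less in wild types (0.198, 0.0696 and 0.167). The wild-type values were still above those of wild-type arrays with unlike numbers (-0.216 to 0.0529). Deviations within a group cancel out, so values for unlike numbers tend to be negative where those for like numbers are positive. That comparison therefore adds little. Both wild-type arrays numbered 1 also shared the sex-linked signal. Pairing was thus read from the data, more clearly in mutants than in wild types. The main model held no term for pairs. Members and lists were chosen with earlier results of these data known. All member probe sets were named, as were listed pathway genes past the threshold in at least 1 contrast and the 5 genes most similar to each member; other genes were named as examples of marker lists.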

Additional observations from a re-analysis of the deposited data

Results flagged for a closer look

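The difference between positive and negative cells differed between genotypes, by limma's interaction test, for 2 members. The interaction was -2.42 for Tek and -2.37 for Tie1, a smaller sort difference in mutants for both. The Tie1 call was lost in 9 of 20 alternatives and the Tek call in 1 of 21. The same test also picked out 4 pathway genes: Ptprb at -3.63 and, with its second probe set, -2.37, Nos3 at -2.20, Foxo1 at -1.37, a call lost in 16 of 21 alternatives, and Svep1 at 1.55, the last with a larger sort difference in mutants. Etv2, the mutated gene, had -3.36. For groups of 3 arrays no search for a single outlying array was made.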

How the results depend on the processing

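Tek kept its direction and call in both sort comparisons and between positive cells of the genotypes under the 22 alternatives run, with 4.27 to 4.68, 1.80 to 2.35 and -1.999 to -1.44. Tie1 kept them in the wild-type sort (2.03 to 2.76) and between positive cells (-2.76 to -2.03) under 21; the filter that keeps probe sets above the array median on at least 3 arrays removes it and the dimmer angiopoietin probe sets. Without both wild-type arrays numbered 1 the interaction of Tek was -2.23 and that of Tie1 -2.17, both past no threshold; leaving out 1 array gave -2.84 to -2.11 for Tie1, 8 of 12 missing it. Angpt1 passed between positive cells with the brightest probe set per gene or the dim filter (1.04, adjusted p 0.0365 and 0.0432), array weights (1.09, 0.0453), the replicate number as a block (1.04, 0.0236) and without both wild-type arrays numbered 1 (1.30, 0.0419); leaving out 1 array gave 0.84 to 1.30. In the mutant sort its 1.08 passed with the brightest probe set per gene (0.0390), the dim filter (0.0495), the replicate number as a block (0.0280) and pairs as a block (0.0256); leaving out 1 array gave 0.82 to 1.27. The cause of these shifts was not tested.

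The replicate block by pairs raised the count of calls in the wild-type sort from 2018 to 3001, in the mutant sort from 1181 to 1848 and for the interaction from 573 to 878, and changed no other member's call; the block by number over all groups, which the pairing check does not bear out between genotypes, changed those of Angpt1 alone. Fitting the 2 groups alone gave 960 calls between positive cells and 565 in the mutant sort. Without both wild-type arrays numbered 1 there were 962 in the wild-type sort and 1303 between positive cells. Leaving out 1 array gave 1272 to 2013 in the wild-type sort, 1304 to 2095 between positive cells and 699 to 1191 in the mutant sort; the counts that fell by over 1.5 times were those without wild-type negative replicate 1 or 2 (1272 and 1303), without mutant positive replicate 1 (1304), and without mutant positive replicate 2 or mutant negative replicate 2 or 3 (699, 757 and 715). Uncalled values near 0 changed sign on leaving out 1 array: Tie1 between negative cells (-0.0431 to 0.15), Angpt2 in the wild-type sort (-0.39 to 0.12) and between negative cells (-0.24 to 0.16), and Angpt2 minus Angpt1 in the wild-type sort (-0.00470 to 0.45), between positive cells (-0.45 to 0.15) and in the mutant sort (-0.55 to 0.0526). Low signal limits Tie1 outside wild-type positive cells.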
